A study of Mus musculus with 12 samples.

Results

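A group of 8 transcription factors that set up or maintain the plasma cell state, Prdm1, Xbp1, Irf4, Pou2af1, Ikzf1, Ikzf3, Ell2 and Tcf3, were followed in plasma cells sorted from mouse bone marrow, 6 samples with and 6 without the zinc finger factor Zbtb32. The genes were chosen by symbol from the probe annotation, and each was read from 1 probe set that names it alone, the brightest on average where there are several. They are 8 of the 19938 genes that have such a probe set. Each of the 8 is covered by 1 single-gene probe set and by 0 probe sets shared with another gene, and each passed the filter on low values, a mean above 5.49 on the log2 scale, which kept 14993 genes.

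A B cell becomes a plasma cell when the repressor Blimp-1, the product of Prdm1, shuts down the B cell program and frees the secretory one. IRF4 acts upstream of Prdm1 and is needed for the survival of plasma cells, and XBP1, made active by splicing in the unfolded protein response, drives expansion of the endoplasmic reticulum. ELL2 is an elongation factor that favours the secreted form of the immunoglobulin heavy chain, OCA-B (Pou2af1) is the coactivator of octamer-binding factors, E2A (Tcf3) is an E protein, and Ikaros (Ikzf1) and Aiolos (Ikzf3) are zinc finger factors of lymphocytes.

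The samples come from a transfer experiment. Splenocytes with the CD45.2 allele, from donors immune to NP-CGG (the hapten NP on a carrier protein), were given to CD45.1 recipients, which were then challenged with NP-CGG, and the marrow was sorted 7 days later. The sorted cells bound NP and carried CD138 and CD45.2, and they lacked B220, Ly6g, CD11b and CD45.1. Both groups therefore share the transfer, the challenge and the gate, and differ in the donor genotype, Zbtb32 +/+ (called wild type) or Zbtb32-/-. The series text calls the 6 samples of each genotype biological replicates. Strain background, sex, age, the deleted segment of Zbtb32, any treatment of the recipients before transfer and any pooling of animals are not given in the sources used here, and the title of the series names memory B cells where the sample labels give plasma cells.

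Gene expression was measured on 1 Affymetrix array per sample, and the values are log2 expression after RMA normalization. Array medians lay between 6.28 and 6.43. Plasma cell markers were present in both groups: the mean log2 level over the 11 measured markers ran from 10.70 to 11.50 in wild type and from 10.78 to 11.51 in Zbtb32-/- samples. These markers include Prdm1, Xbp1 and Irf4, which are among the 8 factors, and Sdc1, which encodes the CD138 of the gate. Their mean is therefore not an independent check of cell identity. Markers of other marrow cells were also measured, and their levels were unequal. The mean over 16 neutrophil genes ran from 8.02 to 10.76 in wild type and from 8.79 to 12.03 in Zbtb32-/- samples. In the same order, the mean over 15 monocyte genes ran from 7.00 to 8.91 and from 7.16 to 8.47. Over 10 erythroid genes it ran from 6.26 to 7.96 and from 6.74 to 7.67. For 16 T and NK cell genes the ranges were 6.08 to 7.06 and 6.12 to 6.42. For 15 B cell genes they were 8.43 to 9.50 and 8.68 to 9.17. The T and NK cell mean includes 2 genes, Ncr1 and Klrd1, that lay below the filter on low values. This mean lay near the array medians in most samples, and whether it stems from T or NK cells was not tested. The Zbtb32 probe set read 6.67 ± 0.16 in wild type and 6.56 ± 0.10 in Zbtb32-/- samples (SD, n = 6 each). A probe set outside the deleted segment would not check the genotype label, and the segment is not known here. The wild-type reading also lies near the array medians, which leaves little room to see a loss. In bulk samples such as these, fewer cells of a type and less RNA per cell cannot be told apart.

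The start sites of 4 of the factors are shown because they hold letters of motifs known for some of these factors or for the unfolded protein response. The runs are the 250 bases before the RefSeq start site in assembly GRCm38.p6, read 5′ to 3′ on the gene's strand. They are chr10:44458749-44458998 on the minus strand for Prdm1, and on the plus strand chr11:5520391-5520640 for Xbp1, chr9:51213440-51213689 for Pou2af1 and chr13:75707234-75707483 for Ell2. Capitals mark matches, on either strand, to the octamer core GCAAAT, the E-box CAGGTG, the Ikaros core TGGGAA and TGACGT, which lies within the unfolded protein response element. The searched motifs AGNGAAAG, GGAANNGAA and GAAANNGAA, bound by Blimp-1, by IRF4 with an ETS partner and by interferon regulatory factors, had 0 matches in the windows of these factors, as did the full octamer ATGCAAAT. Each motif was searched on both strands, and these 4 are found in 7.3%, 6.99%, 7.13% and 1.6% of all windows, in the order given.
Prdm1: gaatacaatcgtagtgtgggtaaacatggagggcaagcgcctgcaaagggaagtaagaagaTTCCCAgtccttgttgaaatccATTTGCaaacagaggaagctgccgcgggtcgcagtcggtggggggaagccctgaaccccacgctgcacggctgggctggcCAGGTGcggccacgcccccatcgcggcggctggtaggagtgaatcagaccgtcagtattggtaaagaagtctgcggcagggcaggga
Xbp1: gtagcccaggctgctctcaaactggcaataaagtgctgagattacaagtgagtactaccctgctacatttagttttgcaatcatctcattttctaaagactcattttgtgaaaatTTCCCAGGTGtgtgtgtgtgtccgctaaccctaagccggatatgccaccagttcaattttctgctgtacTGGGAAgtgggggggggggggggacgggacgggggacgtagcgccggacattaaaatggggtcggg
Pou2af1: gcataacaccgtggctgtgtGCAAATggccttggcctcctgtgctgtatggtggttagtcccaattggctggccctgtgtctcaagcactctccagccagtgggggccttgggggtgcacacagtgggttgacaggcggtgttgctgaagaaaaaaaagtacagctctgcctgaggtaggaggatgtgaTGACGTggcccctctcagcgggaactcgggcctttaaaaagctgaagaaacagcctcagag
Ell2: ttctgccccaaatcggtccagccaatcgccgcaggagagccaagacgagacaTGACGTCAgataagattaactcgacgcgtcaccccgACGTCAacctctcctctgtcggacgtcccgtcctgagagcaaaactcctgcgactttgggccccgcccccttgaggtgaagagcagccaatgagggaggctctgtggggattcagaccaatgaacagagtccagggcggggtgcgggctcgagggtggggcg

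Prdm1 holds 1 octamer core at -167 to -162 from the start site, 1 Ikaros core at -189 to -184 and 1 CAGGTG at -87 to -82. Xbp1 holds 2 Ikaros cores, at -135 to -130 and -66 to -61, and 1 CAGGTG at -131 to -126 that overlaps the first of them. Pou2af1 holds 1 octamer core at -230 to -225 and the whole element TGACGTGG at -61 to -54. Ell2 holds 3 matches to TGACGT, at -198 to -193, -196 to -191 and -162 to -157, of which the first and the second overlap. Among 32851 windows of the same length, GCAAAT was found in 9.26%, CAGGTG in 17.2%, TGGGAA in 21.6%, TGACGT in 6.47% and TGACGTGG in 0.563%. Its core ACGT, found in 26.9% of windows, occurs in Ell2, Pou2af1 and Xbp1, and the octamer cores of Prdm1 and Pou2af1 each overlap an E-box of the form CANNTG. The element TGACGTGG and the motifs TGACGT and GCAAAT were added to the search after the sequences had been seen. Windows were found for 7 of the 8 factors; those of Irf4 and Ikzf1 hold 0 matches to the capitalised motifs, and that of Tcf3 holds an E-box of the wider form CANNTG, found in 66.2% of windows. A match is a description of the letters, not of binding.

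None of the 8 factors passed the test between genotypes. The fit was limma over all 14993 genes, with p-values adjusted by the Benjamini-Hochberg method, and a positive difference means a higher log2 value in Zbtb32-/- samples. The share of all genes called at an adjusted p under 0.05 was 0%, the smallest adjusted p over all genes being 0.933, and 0 of the 8 factors were called. In this fit, with genotype as the only term, 4.28% of all genes and again 0 of the 8 had an unadjusted p under 0.05. Standard errors with the replicate set as a term are given in the closing section. The difference was positive for 7 of the 8 factors and negative for Ikzf3. Over all genes 52.9% of differences were positive. The median difference was 0.12 over the 8 and 0.01 over all genes. The 95% confidence interval excluded a 2-fold difference in either direction for 8 of 8 factors, as it did for 95.3% of all genes, and excluded a 1.5-fold difference for 6 of 8, Prdm1 and Ikzf3 being the others. The share of all genes that exclude 1.5-fold was not computed, so 6 of 8 is not read as particular to the factors. The genotypes overlapped for all 8, and 0.153% of all genes had groups that did not overlap.

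**Figure D1:**
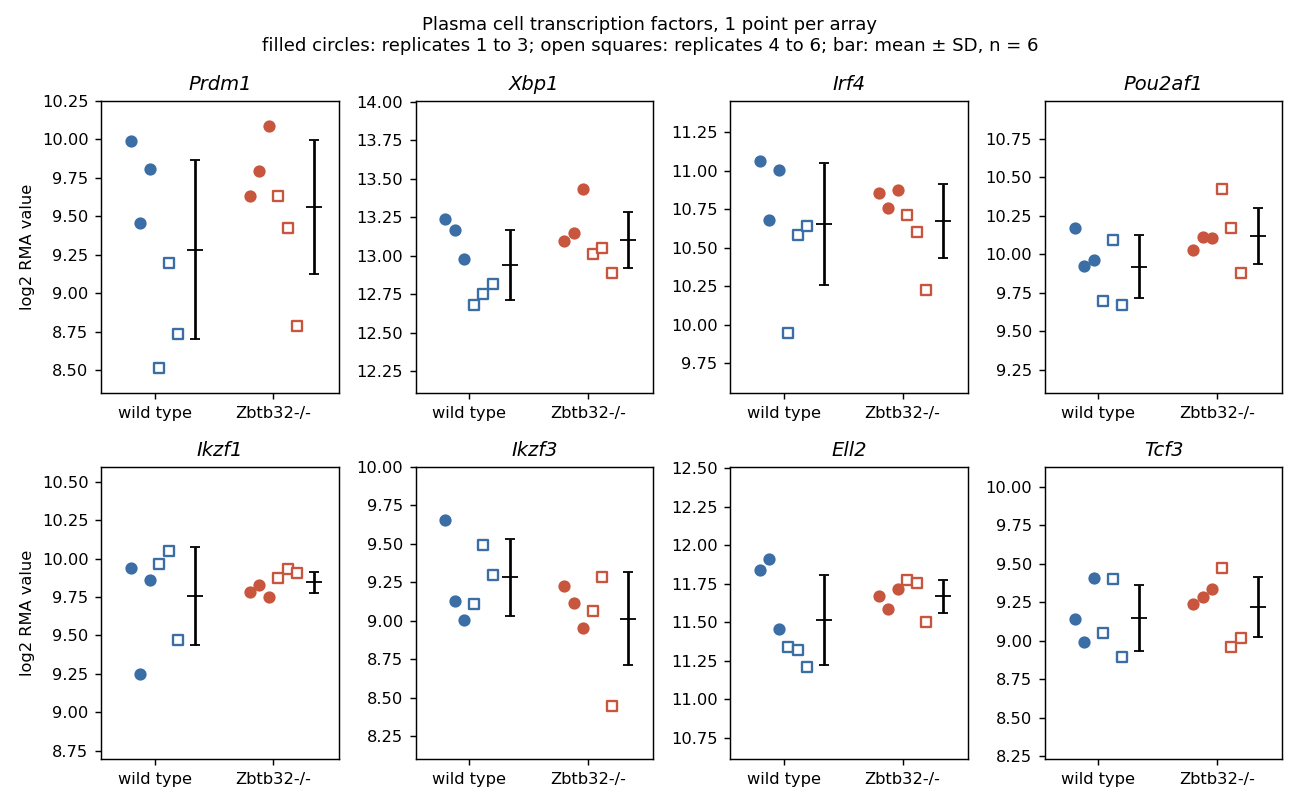
Log2 expression of each of the 8 factors, 1 panel per gene, with 1 point per array for the 6 wild-type and 6 Zbtb32-/- samples, replicates 1 to 3 and 4 to 6 drawn with different markers, and the mean with its SD. The genotypes overlap in every panel, and the largest spread is that of Prdm1 in wild type, from 8.51 to 9.99.

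**Figure D2:**
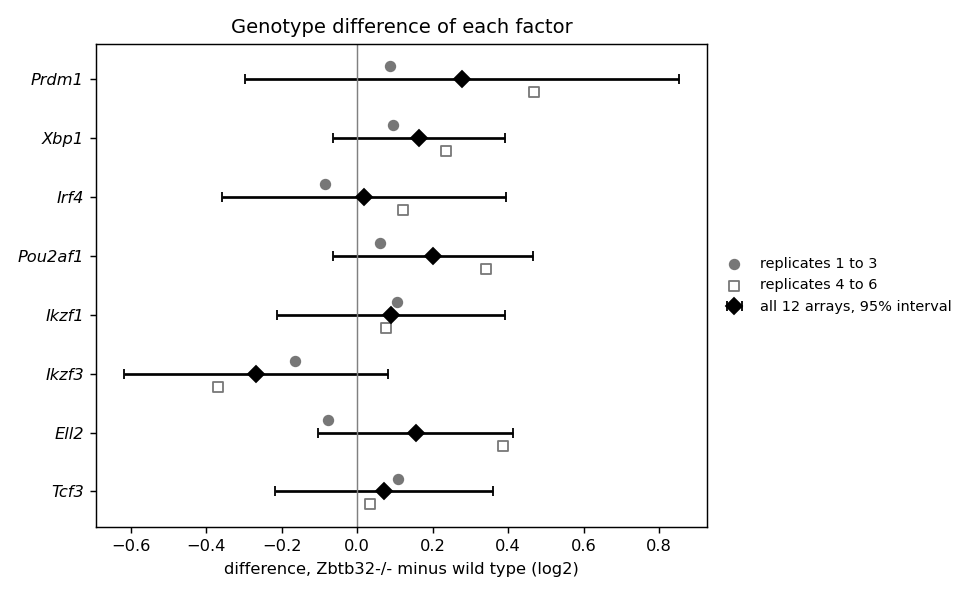
Zbtb32-/- minus wild-type difference of each factor on the log2 scale, with its 95% confidence interval from limma (n = 6 per genotype) and the differences within replicates 1 to 3 and 4 to 6. Every interval includes 0, and Ikzf3 has the negative difference of -0.27.

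Prdm1 and Irf4 form the core of the plasma cell program. In wild type, Prdm1 read 8.51 at the lowest, 9.33 at the median and 9.99 at the highest, and in Zbtb32-/- samples 8.79, 9.63 and 10.09. Low values occur in both groups, in wild-type replicates 4 (8.51) and 6 (8.74) and in Zbtb32-/- replicate 6 (8.79), and the ranges overlap over most of their length. The difference was 0.28 ± 0.27 (SE; 95% interval -0.30 to 0.85, or 0.813-fold to 1.81-fold), with an adjusted p of 0.933 in limma and p = 0.364 in a two-sided exact permutation test over all ways to assign the 12 arrays, whose smallest possible p is 0.00216. Prdm1 was above the wild-type mean in 5 of 6 Zbtb32-/- samples. Without wild-type replicate 4 the difference was 0.12, and without Zbtb32-/- replicate 6 it was 0.43. Its SD over the 12 arrays, 0.513, was above that of 91.4% of genes.

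Irf4, the factor that acts upstream of Prdm1, ran in wild type from 9.95 through a median of 10.66 to 11.06 and in Zbtb32-/- samples from 10.22 through 10.73 to 10.88. The wild-type range holds the whole Zbtb32-/- range, and wild-type replicate 4 was the lowest of the 12 arrays. The difference was 0.02 ± 0.18 (SE; 95% interval -0.36 to 0.40, or 0.780-fold to 1.32-fold; limma adjusted p = 0.992; exact permutation p = 0.926). The sign of so small a difference turned under renewed quantile normalization (-0.0498) and without wild-type replicate 4 (-0.12), Zbtb32-/- replicate 1 (-0.0190) or Zbtb32-/- replicate 3 (-0.0229). The interval leaves out a change of 1.5-fold either way.

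Xbp1, the factor of the secretory expansion, ran in wild type from 12.68 through a median of 12.90 to 13.24 and in Zbtb32-/- samples from 12.89 through 13.07 to 13.43. The highest array was Zbtb32-/- replicate 3 and the lowest 3 were wild-type replicates 4, 5 and 6. The difference was 0.16 ± 0.11 (SE; 95% interval -0.06 to 0.39, or 0.956-fold to 1.31-fold; limma adjusted p = 0.933; exact permutation p = 0.208), and 5 of 6 Zbtb32-/- samples lay above the wild-type mean. The difference was 0.098 without Zbtb32-/- replicate 3 and 0.22 without wild-type replicate 1. The probe set measures total Xbp1 transcript level, and splicing was not analysed here.

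Ell2, the elongation factor, ran in wild type from 11.21 through a median of 11.40 to 11.91 and in Zbtb32-/- samples from 11.50 through 11.70 to 11.78. Wild type holds both the 2 highest and the 4 lowest of the 12 arrays, and the Zbtb32-/- values lie between them: the SD was 0.29 in wild type and 0.11 in Zbtb32-/- samples, a difference in spread that was not tested. The difference of the means was 0.15 ± 0.12 (SE; 95% interval -0.10 to 0.41, or 0.931-fold to 1.33-fold; limma adjusted p = 0.933; exact permutation p = 0.247). Leaving out 1 array gave values from 0.0937 (wild-type replicate 6) to 0.23 (wild-type replicate 2).

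Pou2af1, the octamer coactivator, ran in wild type from 9.67 through a median of 9.95 to 10.17 and in Zbtb32-/- samples from 9.88 through 10.11 to 10.43. Zbtb32-/- replicate 4 was the highest array, and 5 of 6 Zbtb32-/- samples lay above the wild-type mean. The difference was 0.20 ± 0.12 (SE; 95% interval -0.06 to 0.46, or 0.956-fold to 1.38-fold; limma adjusted p = 0.933; exact permutation p = 0.108).

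Ikzf3, which encodes Aiolos, was the factor with a negative difference. It ran in wild type from 9.01 through a median of 9.21 to 9.66 and in Zbtb32-/- samples from 8.45 through 9.09 to 9.29, and 5 of 6 Zbtb32-/- samples lay below the wild-type mean. The difference was -0.27 ± 0.16 (SE; 95% interval -0.62 to 0.08, or 0.652-fold to 1.06-fold; limma adjusted p = 0.933; exact permutation p = 0.130). The lowest array was Zbtb32-/- replicate 6, and without it the difference was -0.15.

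Ikzf1, which encodes Ikaros, ran in wild type from 9.25 through a median of 9.90 to 10.05 and in Zbtb32-/- samples from 9.75 through 9.85 to 9.93. The Zbtb32-/- range lies inside the wild-type range, in which replicates 2 (9.25) and 6 (9.47) are low. The difference was 0.09 ± 0.14 (SE; 95% interval -0.21 to 0.39, or 0.863-fold to 1.31-fold; limma adjusted p = 0.958; exact permutation p = 0.517), and it changed sign when wild-type replicate 2 was left out (-0.0119) and when replicates 2 and 6 both were (-0.11). Tcf3, which encodes E2A, ran in wild type from 8.89 through a median of 9.10 to 9.41 and in Zbtb32-/- samples from 8.96 through 9.26 to 9.47. Its difference was 0.07 ± 0.13 (SE; 95% interval -0.22 to 0.36, or 0.860-fold to 1.28-fold; limma adjusted p = 0.963; exact permutation p = 0.543), and it was -0.03 without wild-type replicates 2 and 6.

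The arrays with replicate numbers 1 to 3 and those numbered 4 to 6 were also set apart, because an earlier look at these data had shown that they differ. The labels do not say what the numbers stand for. Of the 8 factors 7 had a lower mean in replicates 4 to 6 than in 1 to 3, as did 61.2% of all genes. The difference was -0.75 for Prdm1, -0.42 for Irf4, -0.31 for Xbp1 and -0.21 for Ell2, on the log2 scale over both genotypes, and 0.13 for Ikzf1, the exception. The genotype difference was positive for 5 of 8 factors in replicates 1 to 3 and for 7 of 8 in replicates 4 to 6, beside 50.9% and 54.1% of all genes. For Prdm1 it was 0.09 and 0.47, for Pou2af1 0.06 and 0.34, and for Ikzf3 -0.17 and -0.37.

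Ell2 had the smallest p among the 8 for a genotype difference that itself differs between the replicate sets. It was -0.08 in replicates 1 to 3 and 0.39 in replicates 4 to 6, where the 3 wild-type arrays read 11.34, 11.32 and 11.21 and the 3 Zbtb32-/- arrays 11.78, 11.76 and 11.50, so that the genotypes did not overlap there. Xbp1 did not overlap in replicates 4 to 6 either, which makes 2 of 8 factors beside 12.9% of all genes, and in replicates 1 to 3 it was 0 of 8 beside 6.5%. The interaction was 0.47 (95% interval 0.09 to 0.84), with an unadjusted p of 0.0196 and an adjusted p of 0.998 in limma. Over all genes 3.86% passed an unadjusted p of 0.05 and 0% the adjusted one, so 1 of 8 factors at the unadjusted threshold is reported as not called. The other 7 factors had unadjusted interaction p-values from 0.260 (Pou2af1) to 0.920 (Ikzf1).

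The factors varied together to unequal degrees over the 12 arrays. Of the 28 pairs, 25 had a positive Pearson r, and 3 had a permutation p under 0.05 after Benjamini-Hochberg adjustment over the 28. For Prdm1 and Irf4, r was 0.874 and Spearman's rho 0.916 (adjusted permutation p = 0.0014 and 0.00336). Without the 2 arrays farthest from the median of Prdm1, wild-type replicates 4 and 6, r was 0.917. Within replicates 1 to 3 it was 0.645 and within replicates 4 to 6 it was 0.760.

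For Prdm1 and Xbp1, r was 0.859 and rho 0.804 (adjusted permutation p = 0.00364 and 0.0284), and r was 0.768 without the same 2 arrays, with an adjusted p of 0.0976. Within the replicate sets r was 0.579 and 0.779. For Xbp1 and Ell2, r was 0.781 and rho 0.790 (adjusted permutation p = 0.0240 and 0.0284), and r was 0.854 without wild-type replicate 4 and Zbtb32-/- replicate 3. Within the sets r was 0.515 and 0.884, and under renewed quantile normalization it was 0.694, with an adjusted p of 0.109. With 6 arrays in a set, 0 of the 28 pairs passed the adjusted threshold in either set, and the 3 named pairs kept a positive r in both. The pooled values thus span arrays that also differ by replicate set.

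Pou2af1 and Prdm1 had an r of 0.714 that missed the threshold (adjusted permutation p = 0.0577) and was 0.386 without wild-type replicates 4 and 6. Xbp1 and Irf4 had an r of 0.692 that missed it too (adjusted permutation p = 0.0697), with -0.058 within replicates 1 to 3 and 0.591 within replicates 4 to 6. For Ikzf1 and Ikzf3 0 pairs passed: r was 0.06 between them and -0.253 between Ikzf1 and Xbp1.

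**Figure D3:**
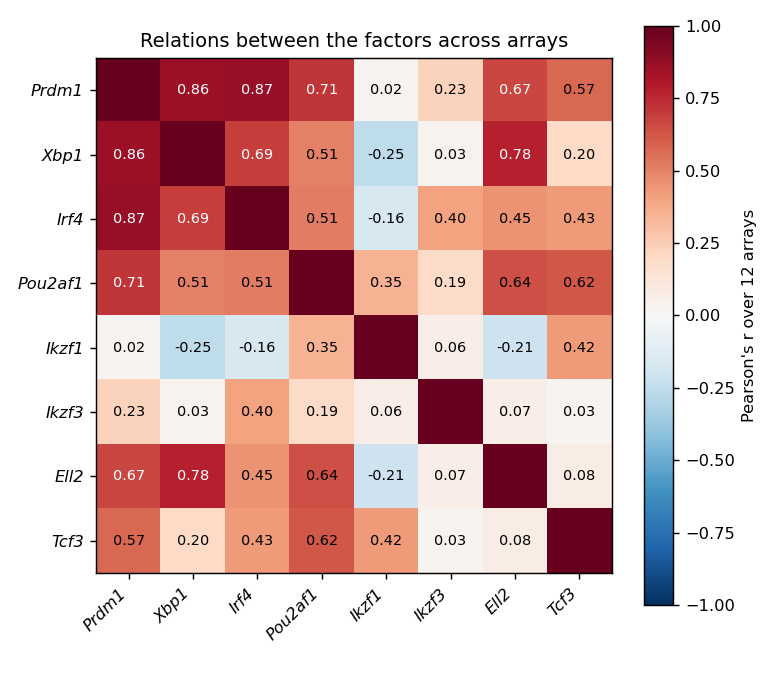
Pearson r between each pair of the 8 factors over the 12 arrays. The highest values are those of Prdm1 with Irf4 (0.874) and with Xbp1 (0.859), while Ikzf1 and Ikzf3 are near 0 with each other (0.06).

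Levels of the factors were also set against the mean of 4 marker lists of other marrow cells (neutrophil, monocyte, erythroid, T and NK), in 8 relations. That mean ran from 6.84 to 8.18 in wild type and from 7.44 to 8.56 in Zbtb32-/- samples. Ell2 was the factor that passed by r: r was -0.764 (permutation p = 0.00343, adjusted 0.0274) and rho -0.804 (adjusted permutation p = 0.0094). Its r was -0.810 without wild-type replicate 2 and Zbtb32-/- replicate 6, and it was -0.898 in replicates 1 to 3 and -0.531 in replicates 4 to 6. Xbp1 passed by rho, which was -0.804 as well (adjusted permutation p = 0.0094), but not by r. Its r was -0.673 (adjusted permutation p = 0.0652), and it was -0.780 without the same 2 arrays (adjusted p = 0.0328). For Prdm1 r was -0.578 and for Irf4 -0.556, with adjusted permutation p-values of 0.0983 and 0.0985. Within replicates 1 to 3 their sign was the opposite (0.425 and 0.384), and within replicates 4 to 6 r was -0.699 and -0.642. Ikzf1 had the positive sign, r = 0.593, and 0.168 without those 2 arrays. The part of other cells in the levels of these factors was not tested. With the marker mean as a covariate, 0 of 8 factors passed between genotypes.

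A second set of 12 relations was added after the data had been seen. It set each of the 8 factors against the B cell markers. It also holds the relations of Xbp1, Prdm1 and Irf4 to the means of pathway lists that are given further below. Ell2 and the mean of the 15 B cell markers had an r of -0.934 and a rho of -0.867 (adjusted permutation p = 0.00036 and 0.00438 over the 12), an r of -0.906 without wild-type replicates 2 and 5, and -0.899 and -0.932 within the replicate sets. Of the 8 factors set against this list, Xbp1 also passed, with r = -0.735 (adjusted permutation p = 0.0162), which became -0.693 with an adjusted p of 0.0528 without 2 arrays and was -0.344 and -0.879 within the sets. The arrays with the highest B cell marker means were wild-type replicates 5 (9.50), 6 (9.49) and 4 (9.34), which are also the 3 lowest arrays for Ell2. The gate left out cells with B220, and the part of B cells in these relations was not tested.

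**Figure D4:**
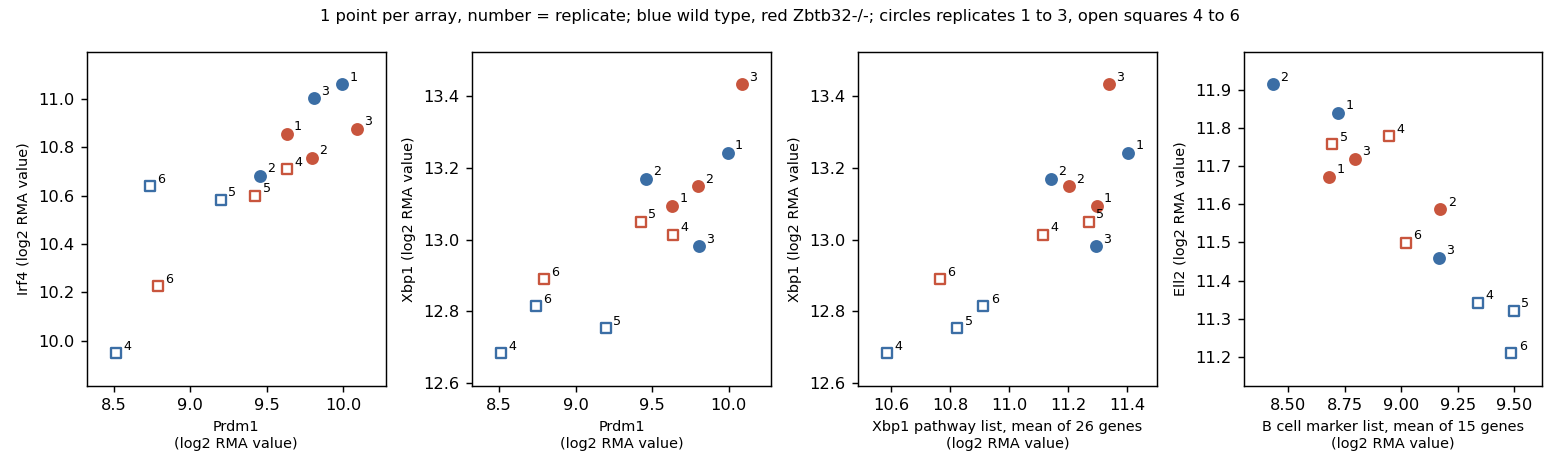
Scatter of pairs of levels over the 12 arrays, 1 point per array, on the log2 scale on both axes, with genotype and replicate set marked. The panels show the relations named in the text, among them Prdm1 with Irf4 (r = 0.874) and Ell2 with the B cell marker mean (r = -0.934).

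The genes with the most similar profile to each factor, ranked by Pearson r over the 12 arrays among 13681 genes, are given as a description with no test. They were Tor1b (0.966), Nars (0.963) and Magt1 (0.956) for Prdm1, Fam193b (0.956), Gusb (0.937) and Ap1s1 (0.933) for Xbp1, and Zdhhc5 (0.965), Ly6e (0.950) and Ggact (0.949) for Irf4. For Pou2af1 they were Nolc1 (0.970), Crcp (0.953) and Ctnnb1 (0.929), for Ell2 Nacc1 (0.940), Slc25a12 (0.926) and Nploc4 (0.911), and for Tcf3 Srek1ip1 (0.900), Zfp235 (0.876) and Sike1 (0.872). For Ikzf1 they were Scyl2 (0.951), Ago1 (0.931) and Pla2g15 (0.929), and for Ikzf3 Cgn (0.837), Ntf5 (0.814) and Ptp4a2 (0.809). The Ikzf3 values rest on 2 arrays: without the 2 farthest from its median they were 0.350, 0.111 and 0.343, and those of Ikzf1 were 0.525, 0.603 and 0.532.

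Relatives and partners of the factors were read from 12 lists, and 0 genes of any list passed the adjusted threshold in limma. Counts below are of genes kept, with the sign of their genotype difference, and list medians are to be read beside 52.9% positive and a median of 0.01 over all genes. Of the 5 genes of the Ikaros family 2 were positive, with a median of -0.10. Ikzf2, which encodes Helios, differed by -0.23 ± 0.09 (SE, unadjusted p = 0.0283) and Ikzf5 by 0.34 ± 0.15 (unadjusted p = 0.0450), both with an adjusted p of 0.933. Ikzf2 read 6.23 in wild type and 6.00 in Zbtb32-/- samples, below the array medians. Its difference was -0.05 in replicates 1 to 3 and -0.41 in replicates 4 to 6. Of 13 genes of the NuRD remodelling complex, a partner of Ikaros proteins, 9 were positive (median 0.04) and 1, the remodeller Chd3, had an unadjusted p under 0.05, with -0.37 ± 0.14. The Chd3 difference was -0.0035 in replicates 1 to 3 and -0.74 in replicates 4 to 6. The NuRD count was 5 of 13, with a median of -0.01, under renewed quantile normalization. The 5 genes of the cereblon ubiquitin ligase, whose human form degrades Ikaros and Aiolos in the presence of thalidomide analogs, were all positive (median 0.13), with 0.21 ± 0.08 for the ligase subunit Rbx1 (unadjusted p = 0.0159, adjusted 0.933), but 2 of 5 were positive without wild-type replicate 4 and 3 of 5 without wild-type replicate 6. The Ikaros family count was 1 of 5 without wild-type replicate 2.

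Among the interferon regulatory factors 3 of 8 were positive (median -0.04, and 5 of 8 without Zbtb32-/- replicate 4), the relatives of Irf4 with the smallest p being Irf7 (0.38 ± 0.25) and Irf9 (-0.21 ± 0.14). Among E proteins and their Id inhibitors, which block E proteins by forming inactive pairs, 3 of 7 were positive (median -0.02), and Id2 differed by -0.45 ± 0.26, with 0.05 in replicates 1 to 3 and -0.95 in replicates 4 to 6. Id2 read 6.62 in wild type and 6.17 in Zbtb32-/- samples, near the array medians. Of the 3 octamer genes 1, Pou2af1 itself, was positive (median -0.08). Pou2f2, the octamer factor of B cells that OCA-B joins, differed by -0.08 ± 0.08, and Pou2f3 by -0.14 ± 0.11. Pou2f3 read 6.29 in wild type and 6.15 in Zbtb32-/- samples, also near the array medians. Of 12 genes of the super elongation complex, which ELL2 belongs to, 7 were positive (median 0.02, and -0.02 with 5 positive under renewed quantile normalization), led by Eaf1 (0.26 ± 0.15) and Mllt1 (0.18 ± 0.14). Of 11 corepressors of Blimp-1, 8 were positive (median 0.09), with 0.49 ± 0.20 for the Polycomb subunit Suz12 (unadjusted p = 0.0263, adjusted 0.933) and 0.40 ± 0.19 for the arginine methyltransferase Prmt5. The Suz12 difference was 0.11 in replicates 1 to 3 and 0.87 in replicates 4 to 6. Of 16 genes listed as inputs to Prdm1 and Irf4, 8 were positive (median -0.0029), with Il6ra at 0.26 ± 0.13 and Il21r at -0.24 ± 0.17. This list joins cytokine receptors and signalling factors with other transcription factors, whose place upstream was not tested. Leaving out 1 array gave counts from 3 of 16 (Zbtb32-/- replicate 1) to 11 of 16 (wild-type replicate 1, Zbtb32-/- replicate 4), with 4 of 16 for wild-type replicates 4 and 6 each and 5 of 16 for Zbtb32-/- replicate 2.

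Of 26 genes listed around XBP1, 25 had a positive difference, with a median of 0.15, and 0 passed the adjusted threshold or an unadjusted p under 0.05. The list joins genes that activate XBP1 or are its targets with other transcription factors of the unfolded protein response. The smallest p-values were those of Sec61b, a subunit of the translocation channel (0.15 ± 0.09), and the disulfide isomerase Pdia6 (0.27 ± 0.16). The count was 22 of 26 with a median of 0.08 under renewed quantile normalization, and 19 of 26 with a median of 0.03 without wild-type replicate 4, the lowest array for this list (10.59). It was 10 of 26 (median -0.02) in replicates 1 to 3 and 26 of 26 (median 0.25) in replicates 4 to 6, and all 26 genes had a lower mean in replicates 4 to 6 (median -0.33). Over the 12 arrays the level of Xbp1 followed the mean of this list, with r = 0.848 and rho = 0.825 (adjusted permutation p of r = 0.00108). Without wild-type replicate 4 and Zbtb32-/- replicate 6, r was 0.807. Within the replicate sets r was 0.309 and 0.904 (adjusted permutation p = 0.640 and 0.0875). This relation was among those added after the data had been seen.

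Genes that Blimp-1 represses or that oppose it gave 4 of 12 positive and a median of -0.19, with 7 of 12 (median 0.04) in replicates 1 to 3 and 4 of 12 (median -0.46) in replicates 4 to 6. Leaving out 1 array gave medians from -0.107 (without wild-type replicate 5) to -0.286, and the count was 2 of 12 without Zbtb32-/- replicate 6. The repressor Bach2, which holds back Prdm1 in B cells, differed by -0.70 ± 0.28 (unadjusted p = 0.0271, adjusted 0.933 in limma). The B cell factor Ebf1 differed by -0.74 ± 0.36 and Pax5, which sets B cell identity, by -0.60 ± 0.44, reading 9.68 ± 1.11 in wild type and 9.08 ± 0.57 in Zbtb32-/- samples (SD, n = 6 each). Spib differed by -0.36 ± 0.47, Irf8 by -0.19 ± 0.27 and Myc, a transcription factor of cell growth that Blimp-1 represses, by 0.50 ± 0.26. Bcl6, the germinal centre repressor, differed by 0.08 ± 0.27. The B cell marker mean, which holds Pax5, Ebf1 and Ciita as well, was 9.11 ± 0.44 in wild type and 8.89 ± 0.20 in Zbtb32-/- samples (SD, n = 6 each). By replicate set it was 8.77 ± 0.37 and 8.88 ± 0.26 in replicates 1 to 3 and 9.44 ± 0.09 and 8.89 ± 0.17 in replicates 4 to 6 (SD, n = 3 each), so the wider gap lay in the same set as for the opposed list. The difference was not tested, and its part in these values was not tested. Prdm1 and the mean of this list had an r of -0.494 (adjusted permutation p = 0.179).

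Of 17 products and surface genes of plasma cells, 11 were positive with a median of 0.04, and 8 with a median of -0.0048 under renewed quantile normalization. Leaving out 1 array gave counts from 5 (median -0.05) without wild-type replicate 4 to 15 (median 0.15) without Zbtb32-/- replicate 6. The count was 7 of 17 (median -0.08) in replicates 1 to 3 and 15 of 17 (median 0.17) in replicates 4 to 6. Jchain, which joins antibody polymers, differed by -0.11 ± 0.05 and the surface protein gene Ly6k by 0.70 ± 0.39. Sdc1, which encodes the CD138 used in the sort, read 10.92 ± 0.39 in wild type and 11.03 ± 0.23 in Zbtb32-/- samples (SD, n = 6 each), a difference of 0.11 ± 0.17. The survival receptor Tnfrsf17 differed by -0.17 ± 0.22, the chaperone Mzb1 by 0.14 ± 0.13 and the homing receptor Cxcr4 by 0.02 ± 0.15. Of the 17 genes 16 had a lower mean in replicates 4 to 6, with a median of -0.37.

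The relations of Irf4 and Prdm1 to the mean of these products were among those added after the data had been seen. The level of Irf4 followed that mean with r = 0.925 and rho = 0.853 (adjusted permutation p of r = 0.00042). Without the 2 farthest arrays r was 0.763. Within the replicate sets r was 0.785 and 0.863 (adjusted permutation p = 0.2 and 0.0875). Prdm1 followed the mean of the products with r = 0.909 and rho = 0.825 (adjusted permutation p of r = 0.00052), and with r = 0.819 without 2 arrays. Within the sets r was 0.781 and 0.805 (adjusted permutation p = 0.2 and 0.153).

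**Figure D5:**
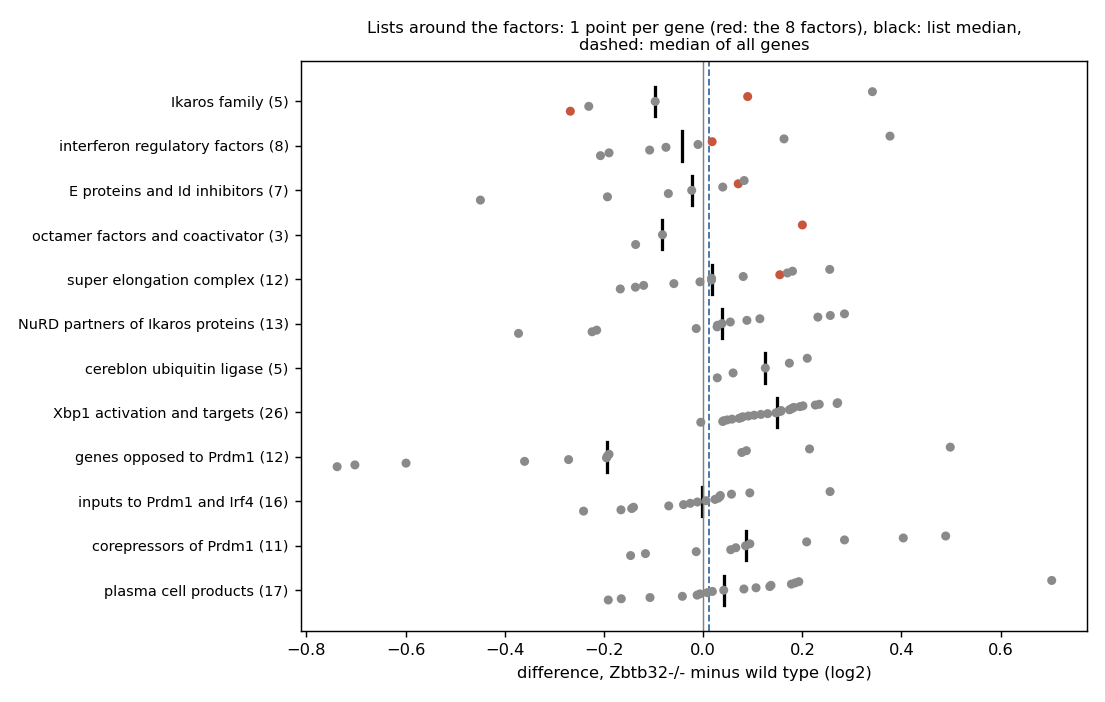
Zbtb32-/- minus wild-type difference on the log2 scale of each kept gene in the pathway lists, 1 point per gene, with the list's median. The Xbp1 list lies mostly above 0 (25 of 26, median 0.15) and the list of genes opposed to Prdm1 mostly below (4 of 12 positive, median -0.19), with 0 genes past the adjusted threshold.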

How the data were processed

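Total RNA, extracted with a kit for small samples, was amplified with the WT Pico kit, per the labels' protocols. The authors deposited log2 values for each probe set. Per the submitters' processing notes they used Affymetrix Expression Console and RMA, whose versions are not given in the sources used here. This method narrows differences of low values and makes arrays alike, and whether all 12 were normalized together is not given. Arrays have no read depth, so the number of arrays limits the precision. Gene names came from the platform annotation of 35556 probe sets, of which 21789 name 1 gene.

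Of several probe sets naming a gene alone, the brightest was used. Genes were kept if their mean exceeded the 25th percentile, 5.49. Genotypes were compared with limma 3.58.1 in R 4.3.3 (lmFit, eBayes with trend; threshold 0.05 after Benjamini-Hochberg adjustment over 14993 genes), with genotype as the only term. The interaction with replicate set was fitted in the same way. Relations used 100000 permutations in Python 3.11.15 with scipy 1.17.1. The fit was also run on simulated data with independent noise for each gene. Those data lack the differences between replicate sets seen here, so that run cannot show how the fit handles them. Alternatives changed the normalization (quantile, median), the filter (none, stricter), the probe sets (their mean), the variance model or array weights, added a replicate block, the replicate set or an other-cell covariate, or left out arrays. The members and lists were chosen with earlier results of these data known. Named genes are the 8 members, the 2 genes of each list with the smallest p (any kept gene of the opposed and product lists), the 3 most similar genes per member, Zbtb32 and Sdc1.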

Additional observations from a re-analysis of the deposited data

How the results depend on the processing

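Under 26 alternatives for each of the 8 factors, 199 of 208 differences kept their sign and 0 passed the threshold, the smallest adjusted p (limma) being 0.558. With the replicate set as a term, the differences were unchanged, and the SE was 0.065 for Xbp1, 0.18 for Prdm1 and 0.16 for Ikzf3. Without it the SE was 0.11, 0.27 and 0.16. In replicates 4 to 6 alone, the difference was 0.23 ± 0.07 (SE) for Xbp1 and 0.39 ± 0.11 for Ell2. The limma adjusted p was 0.6995 for both. In replicates 1 to 3 alone it was 0.09 ± 0.10 and -0.08 ± 0.13 (difference ± SE). Unadjusted p-values of the factors in these fits are not given here. Differences that changed sign were those of Irf4 under renewed quantile normalization (-0.0498) and in replicates 1 to 3 alone (-0.0854), of Ell2 in replicates 1 to 3 alone (-0.0781), and, without wild-type replicates 2 and 6, of Ikzf1 (-0.108) and Tcf3 (-0.0314). Leaving out 1 array at a time gave -0.123 to 0.107 for Irf4 and -0.0119 to 0.148 for Ikzf1. The number of genes called was 1 in replicates 4 to 6 alone: Rny1, a Y RNA gene named after its values were seen, which read 6.15 in wild type and 4.63 in Zbtb32-/- samples (adjusted p = 0.0253, limma), with 1057 genes at an unadjusted p under 0.05. Both readings are low: 4.63 lies below the filter on low values, 5.49, and 6.15 below the lowest array median, 6.28. In the other alternatives 0 were called, with 341 to 1416 genes over all alternatives at an unadjusted p under 0.05. Within replicates 1 to 3 and within 4 to 6, 0 pairs of factors and 0 relations to other-cell markers passed. Without the 2 farthest arrays, 2 pairs and 2 marker relations did.

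Same-numbered samples did not deviate together for every number (correlations from 0.019 to 0.468), so the numbers were not taken to pair the samples. With the replicate number as a block, 0 genes were called, and 914 had an unadjusted p under 0.05. The list medians were not stable: those of the Xbp1, opposed and product lists changed sign between replicates 1 to 3 and 4 to 6 (-0.02 and 0.25, 0.04 and -0.46, -0.08 and 0.17). With the stricter filter the median was 0.09 for the Ikaros family and 0.06 for the octamer factors. That filter left 3 and 2 genes in these lists, so the medians moved because genes dropped out. With 6 arrays per genotype, the median half-width of the 95% interval over all genes was 0.311 on the log2 scale. Genes were called by adjusted p, a stricter rule than this interval, so differences larger than the half-width could also go uncalled.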
